A study of Mus musculus with 4 samples.

Results

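The 7 genes described here encode the cyclin-dependent kinase inhibitors of the mouse, taken by symbol from the gene lists of the files: the Cip/Kip genes Cdkn1a, Cdkn1b and Cdkn1c and the Ink4 genes Cdkn2a, Cdkn2b, Cdkn2c and Cdkn2d, 7 of 28692 genes listed. They were measured by droplet single-cell RNA-seq (10x Genomics, 3′ kit v2) in hematopoietic stem and progenitor cells (HSPCs) of male C57BL/6-CD45.2 mice, sorted from bone marrow as lineage-negative, Sca-1+, cKit+ and Flt3- cells. There were 4 pools of 2 to 3 animals each: young pools (young A, young B) from mice of 2 to 3 months, and aged pools (aged A, aged B) from mice of 17 to 18 months. The mice carried no transgene or treatment that the labels name. Pools A were captured and sequenced at the HalioDX facility and pools B at the TGML facility, here called platforms A and B. The letters also stand for 2 separate batches of mice. In a difference between platforms, the animals, their sort and the facility cannot be told apart. The labels give a higher number of reads per cell for the young pool of platform B and the aged pool of platform A, whose free-text notes also state the opposite age, and ages here follow the titles and source names. Cd34 was at 288 and 234 CPM in young A and young B and at 117 and 61 CPM in aged A and aged B. Procr was at 96.4 and 117 and at 187 and 201 CPM, so that both separated the pools by the titles. The stem cell markers Hlf (196, 203, 275 and 196 CPM) and Mecom (48.6, 52.4, 104 and 51.8 CPM, same order) overlapped between the ages.

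After removal of barcodes with outlying depth, 14915 of 15566 barcodes were kept, 2244 to 5189 per pool, with a median of 5674 to 6719 unique molecular identifiers (UMIs) per cell and 16399999 to 36446168 UMIs per pool. Any pair of pools shared 10 to 29 barcodes. The surface markers of the sort were present, with Kit at 71.7 to 164 and Ly6a (Sca-1) at 164 to 355 CPM (the usual depth-scaled unit, a gene's UMIs relative to all UMIs of the pool), while Flt3, which the sort should remove, was at 48 and 15 CPM in young A and young B and at 10.5 and 2.4 CPM in aged A and aged B. Markers of B lymphoid cells (10 genes, 1 to 3 at 0) summed to 562 and 473 CPM in young A and young B and to 3774 CPM in aged A, with aged B between these. Those of plasma cells (8 genes, at most 1 at 0) summed to 144 and 131 CPM in the young and to 1363 and 385 CPM in the aged pools. They separate the ages as Cdkn2c and Cdkn1a do below, and their part in those results was not tested. Aged pool A stood apart in a list of 10 immediate-early genes, none of them at 0 in any pool, whose summed level was 4098 CPM there, 925 CPM in aged B, and 1156 and 411 CPM in young A and young B.

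Cyclin-dependent kinases drive the cell cycle, and their inhibitors hold it back. The Ink4 proteins bind Cdk4 and Cdk6 and keep D cyclins off them, so that Rb stays active and E2F targets stay silent. The Cip/Kip proteins bind complexes of cyclins with Cdk2 and other kinases. In blood-forming stem cells most cells rest in G0, and single members of both families are known to keep them there: Cdkn1c (p57) and Cdkn1b (p27) in resting stem cells, Cdkn1a (p21) under stress and downstream of p53, Cdkn2c (p18Ink4c) as a brake on self-renewal, and Cdkn2a (p16Ink4a and p19Arf) as a marker of senescence that Polycomb proteins repress.

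The genes lay on 5 chromosomes of GRCm38. Cdkn2a (chr4:89274471-89294653) and Cdkn2b (chr4:89306299-89311039) were neighbours on the minus strand, 11.6 kb apart, and Cdkn2c (chr4:109660876-109667189) lay on the same chromosome and strand. Cdkn2d was at chr9:21288410-21291407, Cdkn1a at chr17:29090976-29100727, Cdkn1b at chr6:134920401-134925513 and Cdkn1c at chr7:143458339-143461050. Both annotated transcripts of Cdkn2a, which have separate first exons (chr4:89281986-89282192 and chr4:89294334-89294653) and encode p16Ink4a and p19Arf, shared their second exon (chr4:89276645-89276985) and nearly all of their last one, so that 3′ counts could not tell them apart. The unclassified gene AC167363.2 overlapped Cdkn1a and the antisense gene Gm44732 overlapped Cdkn1c, both on the opposite strand and neither over the 3′ end of the member.

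Promoter letters are shown for Cdkn2c and Cdkn2d, which had the largest rise in G2/M cells, and for Cdkn1a, which with Cdkn2c stood higher in both aged pools. The window of Cdkn1b, with 1 GC box, and the upstream window of Cdkn1a, with no match, are not shown. Each line is the 250 bases before a RefSeq start on GRCm38.p6, in lower case, and capitals mark every match, on either strand, to one of 7 motifs. The motifs were the GC box GGGCGG, found in 32.7% of the 32851 windows of this length, the cell cycle homology region TTTGAA (16%), E2F-type letters TTCCCGCC (1.86%) and TTTCGCG (0.703%), the TATA box TATAAA (12.4%), the AP-1 site TGACTCA (4.46%) and the cyclic AMP element TGACGTCA (1.55%).
Cdkn2c, upstream start, chr4:109666757-109667006, minus strand: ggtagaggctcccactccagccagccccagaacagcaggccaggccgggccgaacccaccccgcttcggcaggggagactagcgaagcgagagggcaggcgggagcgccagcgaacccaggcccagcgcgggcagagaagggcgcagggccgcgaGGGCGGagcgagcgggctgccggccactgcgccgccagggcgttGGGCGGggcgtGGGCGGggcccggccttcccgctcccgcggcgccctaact
Cdkn2c, downstream start, chr4:109665373-109665622, minus strand: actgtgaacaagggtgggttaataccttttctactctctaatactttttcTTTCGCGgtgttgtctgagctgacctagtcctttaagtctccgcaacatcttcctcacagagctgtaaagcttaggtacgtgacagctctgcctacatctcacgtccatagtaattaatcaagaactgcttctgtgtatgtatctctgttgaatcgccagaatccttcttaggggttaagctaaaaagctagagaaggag
Cdkn2d, chr9:21291210-21291459, minus strand: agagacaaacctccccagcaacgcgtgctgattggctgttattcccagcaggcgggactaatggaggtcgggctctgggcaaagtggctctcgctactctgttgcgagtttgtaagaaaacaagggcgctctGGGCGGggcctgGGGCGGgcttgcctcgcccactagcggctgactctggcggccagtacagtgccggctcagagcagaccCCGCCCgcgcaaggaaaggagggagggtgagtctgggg
Cdkn1a, downstream start, chr17:29093519-29093768, plus strand: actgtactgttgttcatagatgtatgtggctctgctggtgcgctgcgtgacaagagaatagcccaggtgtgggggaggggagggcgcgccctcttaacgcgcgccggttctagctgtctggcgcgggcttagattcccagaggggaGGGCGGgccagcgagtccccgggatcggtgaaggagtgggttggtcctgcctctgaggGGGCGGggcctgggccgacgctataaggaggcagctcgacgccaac

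The upstream window of Cdkn2c and the window of Cdkn2d each held 3 GC boxes, and the window of Cdkn1a shown held 2. The downstream window of Cdkn2c held no GC box but the letters TTTCGCG, 200 bases before that start. No window shown held TTTGAA, the AP-1 letters or the cyclic AMP element. These matches describe the letters and not bound sites. RefSeq windows matched 6 of the 7 members, and Cdkn1c was not among them.

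Cdkn2d (p19Ink4d) had the highest level of the 7 in 3 of the 4 pools, with Cdkn1c above it in aged A, and Cdkn2a and Cdkn2b were close to absent. Each mRNA is counted once at its 3′ end in this assay, so CPM was compared between genes with no correction for length. Of all UMIs of the 7 genes, Cdkn2d took 41.1% and 61.4% in young A and young B and 25.8% and 50% in aged A and aged B. Intervals given with single levels are 95% exact intervals of the counts and cover counting error only.

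Cdkn2d was at 78.7 and 80.2 CPM in young A and young B and at 76.9 and 91.8 CPM in aged A and aged B. The ages overlapped, and the edgeR quasi-likelihood test on summed counts, with platform as a block, gave a log2 fold change of aged over young of 0.03 ± 0.179 (SE, n = 2 pools per age; adjusted p = 0.963). The sign of this small difference turned with DESeq2's scaling. At least 1 UMI was seen in 36.9% and 40.6% of young cells and in 35.2% and 47% of aged cells, in the order A, B.

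Cdkn2a, the locus most often read as a mark of senescence, gave 8 and 0 UMIs in young A and young B and 3 and 7 in aged A and aged B. The level in aged B was 0.21 CPM (0.0846 to 0.433), and young A had 0.22 CPM (0.0948 to 0.433). Cdkn2b (p15Ink4b) gave 2 and 0 UMIs in the young pools and 1 and 3 in the aged pools. Neither gene passed the filter on low counts, so no test was made, and 0 UMIs in young B have an exact upper limit of 0.225 CPM (0.183 CPM by the rule of 3 counts). A difference with age was not detectable for these genes at this depth.

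The question of the study's design was which genes differ between young and aged HSPCs. Of the 7 members, 5 were tested, and in the fit over whole pools 0 of them passed an adjusted p of 0.05, against 2.03% of all 13555 genes. At an unadjusted p under 0.05 there were 3 (Cdkn2c, Cdkn1c and Cdkn1a), as were 2175 of all 13555 genes. DESeq2 called 2 of the 5, and its share over all genes is not given here. Both aged pools lay above both young pools for Cdkn1a and Cdkn2c and below them for Cdkn1b, against 18.1% of tested genes above and 13.6% below. As the samples are pools of several mice, levels over a whole pool do not tell a change per cell from a change in the mixture of cells. The p-values and SEs rest on the spread between pools, with few residual degrees of freedom after the platform block. The edgeR fit therefore draws the spread of each gene towards that of other genes, and an SE is not that gene's own spread alone. The contrast left for the spread, aged A and young B against young A and aged B, is also that of reads per cell. On simulated counts this age fit made more false calls than its threshold allows and recovered 35% of 2-fold changes. The age fits below, on parts of the cells, have the same design and were not simulated.

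Cdkn2c, the inhibitor of Cdk4 and Cdk6 known to limit stem cell self-renewal, was at 26.5 and 13.2 CPM in young A and young B and at 54.1 and 36.1 CPM in aged A and aged B. Every aged pool was higher than every young pool, 2.04-fold on platform A and 2.72-fold on platform B. The log2 fold change over whole pools was 1.18 ± 0.202 (SE, n = 2 pools per age; edgeR adjusted p = 0.0675, DESeq2 adjusted p = 0.00788).

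Cdkn1a, a p53 target, was at 7.41 and 10.1 CPM in young A and young B and at 58.6 and 16.2 CPM in aged A and aged B. Aged pool A was far above the rest, and the ratio of aged to young was 7.91 on platform A but 1.61 on platform B. Of the Cdkn1a UMIs of aged B, 28.2% came from a megakaryocyte-primed cluster of 96 cells in that pool, described below. The log2 fold change was 1.8 ± 0.54 (SE, n = 2 pools per age; edgeR adjusted p = 0.197, DESeq2 adjusted p = 0.0103). With no platform block it was 0.99 without aged A and 2.51 without aged B. The immediate-early list was also highest in aged A, but unlike Cdkn1a it was higher in young A (1156 CPM) than in aged B (925 CPM). Its part in the level of Cdkn1a was not tested. With the cells of the cluster led by immediate-early genes left out, an alternative added after the data were seen, Cdkn1a was at 6.73, 10.1, 43.4 and 15 CPM in young A and young B and aged A and aged B.

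Cdkn1c, known for holding stem cells in G0, was at 55.4 and 8.66 CPM in young A and young B and at 90.2 and 24 CPM in aged A and aged B. The ages overlapped, and platform A was 6.4-fold above platform B in young and 3.76-fold in aged cells. In a test of the platform term, added after the data were seen, Cdkn1c was higher on platform A by a log2 fold change of 2.02 ± 0.266 (SE; edgeR adjusted p = 0.0205), against 7.6% of genes called for platform in either direction, and it was the only member called. Within both platforms the aged pool was higher, 1.63-fold on A and 2.77-fold on B. The age difference of 1.01 ± 0.26 (SE, log2; n = 2 pools per age) had an adjusted p of 0.15 in edgeR, and with 1 pool left out it ranged from -0.24 to 2.44. Fits of age on 3 pools have no room for the platform block, so for Cdkn1c they mix the platform difference into that of age, including the fit without young A that passed (2.44, edgeR adjusted p = 0.00951).

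Cdkn1b was at 23.1 and 18.5 CPM in young A and young B and at 18.4 and 15.4 CPM in aged A and aged B. Aged cells were lower, 0.798-fold on platform A and 0.83-fold on platform B, with young B and aged A almost equal. The log2 fold change of -0.35 ± 0.174 (SE, n = 2 pools per age) did not pass the test (edgeR adjusted p = 0.433).

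**Figure D1:**
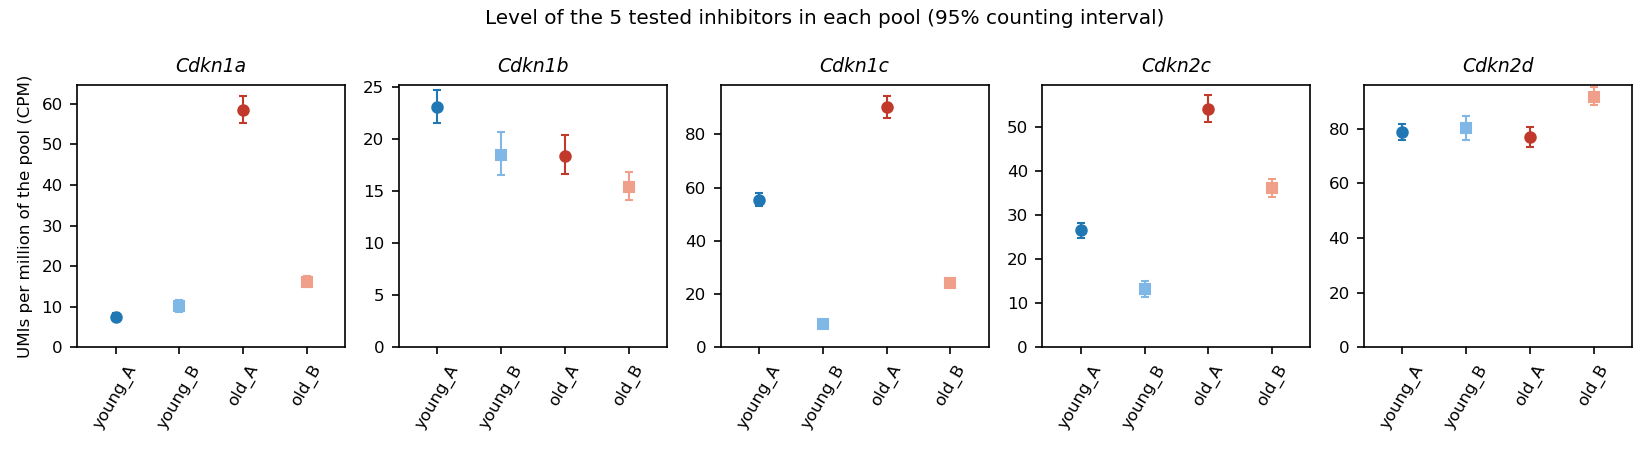
Level of the 5 tested inhibitors in each pool, in CPM of the pool (vertical axis, from 0), with the 4 pools along the horizontal axis, circles for platform A, squares for platform B, blue for young and red for aged; bars are 95% counting intervals. Cdkn1a stands out in aged A (58.6 CPM), Cdkn1c follows the platform, and Cdkn2d is nearly level at 76.9 to 91.8 CPM.

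Most HSPCs rest, so the phases of the cell cycle were called with cyclone, which reads the order of gene pairs, after every pair holding a member was removed (110 of 12052 pairs for G1, 121 of 6459 for S and 71 of 9981 for G2/M). G2/M cells made up 8.42% and 6.55% of young A and young B and 3.79% and 5.37% of aged A and aged B. They held 9302 to 12272 UMIs at the median, against 5641 to 6577.5 in G1/G0 cells, a class that takes in resting cells.

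All 5 tested members differed between G2/M and G1/G0 cells, in a comparison that called 40.6% of all genes. Cdkn2d and Cdkn2c rose in G2/M, Cdkn1b rose by less, and Cdkn1c and Cdkn1a fell. The test was edgeR on 12 sums, 1 for each pool and phase, with pool as a block.

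Cdkn2d was at 62.9 and 66.9 CPM in G1/G0 cells of young A and young B and at 71.4 and 78.1 CPM in those of aged A and aged B. In G2/M cells it was at 192, 188, 168 and 239 CPM in the same order. The phases did not overlap, the ratio was 3.05, 2.81, 2.35 and 3.06, and the log2 fold change was 1.49 ± 0.0873 (SE, n = 4 pools; edgeR adjusted p = 2.63e-12). With every cell thinned to 3000 UMIs, 17.9% to 22.4% of G1/G0 cells and 35.9% to 43% of G2/M cells still held a Cdkn2d UMI.

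The size of the Cdkn2c difference was not alike on both platforms. On platform A it was 5.97-fold higher in G2/M than in G1/G0 cells of the young pool (96.3 and 16.1 CPM) and 3.3-fold higher in the aged pool (156 and 47.4 CPM). On platform B the ratio was 0.886 in the young pool (11.9 and 13.4 CPM) and 1.55 in the aged pool (54.1 and 34.8 CPM). The pooled log2 fold change was 1.5 ± 0.231 (SE, n = 4 pools; edgeR adjusted p = 1.78e-05) and stayed past the threshold without any 1 pool, but young B, with 18 UMIs of Cdkn2c in 147 G2/M cells, did not show it. Whether the platforms differ in this respect was not tested.

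Cdkn1c was lower in G2/M in every pool, at 0.391 and 0.913 of the G1/G0 level in young A and young B and at 0.341 and 0.694 in aged A and aged B. In young B the G2/M level rested on 12 UMIs in 147 cells. It was 7.91 CPM (4.09 to 13.8), against 8.67 CPM (7.2 to 10.3) in G1/G0 cells, so the counting intervals overlapped there. The ratio was lower on platform A, where the gene was more abundant. The log2 fold change was -1.12 ± 0.146 (SE, n = 4 pools; edgeR adjusted p = 1.82e-06) and passed under every alternative run.

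Cdkn1a was at 0.732 and 1.42 of its G1/G0 level in G2/M cells of young A and young B and at 0.223 and 0.458 in those of aged A and aged B. The fall by 0.94 on the log2 scale (SE 0.252, n = 4 pools; edgeR adjusted p = 0.00471) was not called without aged A (-0.46, edgeR adjusted p = 0.128). Cdkn1b was at 1.6, 1.33, 1.09 and 1.08 times its G1/G0 level in the same order. Its log2 fold change of 0.4 ± 0.147 (SE, n = 4 pools; edgeR adjusted p = 0.0345) was not called with DESeq2 (adjusted p = 0.198), without young A (edgeR adjusted p = 0.517) or without young B (edgeR adjusted p = 0.0726).

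S phase held few cells, 38 to 163 per pool. Cdkn1c was lower in S than in G1/G0 by a log2 fold change of -0.6 ± 0.188 (SE, n = 4 pools; edgeR adjusted p = 0.0221), which was not called with DESeq2 (adjusted p = 0.181), without aged A (edgeR adjusted p = 0.0547) or without young A (edgeR adjusted p = 0.493). Cdkn2d was higher in S by 0.54 ± 0.108 (SE, log2; edgeR adjusted p = 0.000644). With phases called by Seurat's scoring the sign turned, and Cdkn2d was lower in S by a log2 fold change of -0.32 (edgeR adjusted p = 0.00106), so its direction in S rests on how S cells are called. The other 3 tested members did not pass, while 24.7% of all genes did, and Cdkn1b passed with Seurat phases (-0.42, edgeR adjusted p = 0.00147).

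**Figure D2:**
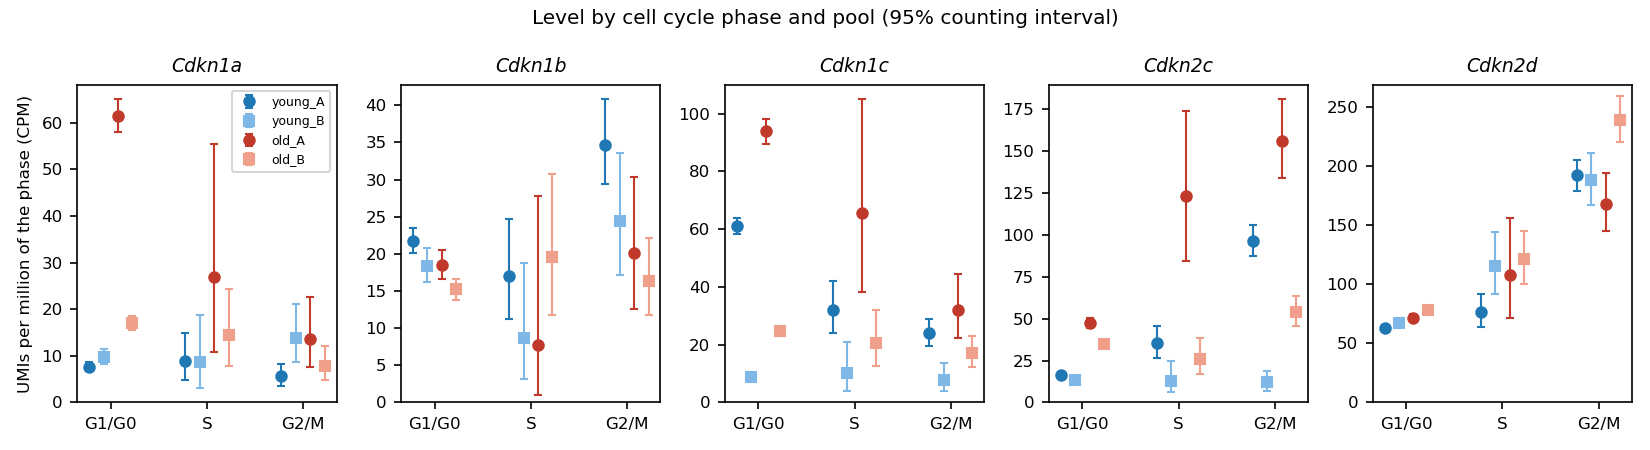
Level of the 5 tested inhibitors by called phase (horizontal axis) in CPM of the cells in that phase (vertical axis, from 0), 1 point per pool with its 95% counting interval, circles for platform A and squares for platform B. Cdkn2d rises from at most 78.1 CPM in G1/G0 to at least 168 CPM in G2/M in all 4 pools, whereas Cdkn2c is 5.97-fold and 3.3-fold higher in G2/M in the platform A pools and 0.886-fold and 1.55-fold in the platform B pools.

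As the share of G2/M cells differed between the ages, age was also compared within G1/G0 cells. Cdkn2c rose with age there, from 16.1 and 13.4 CPM in young A and young B to 47.4 and 34.8 CPM in aged A and aged B. The log2 fold change was 1.42 ± 0.165 (SE, n = 2 pools per age; edgeR adjusted p = 0.0171), and it was the 1 member called, against 2.89% of all genes. The log2 fold change was 1.38 with DESeq2, 1.76 with Seurat phases and 1.36 to 1.46 with 1 pool left out. The call was lost without the platform block (edgeR adjusted p = 0.185), and also with 1 pool left out (edgeR adjusted p = 0.281 to 0.501), where the block had to be dropped too.

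In the same G1/G0 cells Cdkn1a was at 7.6 and 9.73 CPM in young A and young B and at 61.5 and 17 CPM in aged A and aged B. Aged pool A was again far above the rest (log2 fold change 1.89 ± 0.496, SE; edgeR adjusted p = 0.134, DESeq2 adjusted p = 0.00426). Cdkn1c (0.99 ± 0.274, SE; adjusted p = 0.15), Cdkn1b (-0.3 ± 0.177, SE; adjusted p = 0.507) and Cdkn2d (0.16 ± 0.163, SE; adjusted p = 0.736) did not pass in edgeR.

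The age difference in G2/M cells minus that in G1/G0 cells was tested directly, and 0 of 5 members passed, against 0.339% of all genes. At an unadjusted p under 0.05 there were 2 members, as were 888 of all 10622 genes. DESeq2 gave no adjusted p for Cdkn1a, Cdkn1b and Cdkn1c here, so they could not pass, and it called none of the other members. For Cdkn1a the difference was -1.66 ± 0.403 (SE, log2; edgeR adjusted p = 0.094). The levels of Cdkn1a in G2/M cells overlapped between the ages, at 5.56 CPM in young A, 13.8 CPM in young B, 13.7 CPM in aged A and 7.78 CPM in aged B. For Cdkn2c it was -0.86 ± 0.412 (SE, log2, with an edgeR adjusted p = 0.593), and it turned to 1.37 without young A, resting on a lone young pool. With other pools left out, the difference was -1.43 for Cdkn2c without aged A and -2.15 for Cdkn1a without aged B, each resting on a lone aged pool. With a pool left out the platforms are no longer balanced between the ages. A platform difference between the phases would then enter this term, and whether Cdkn2c has one was not tested.

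The cells were next ranked within each pool by 8 stem cell markers (Hlf, Mecom, Mllt3, Procr, Fgd5, Hoxb5, Pdzk1ip1 and Ifitm1) and cut into quartiles. The rank was that of the mean, over these genes, of log-transformed depth-scaled UMIs, highest in the top quartile. G2/M cells made up 10.5% to 17.5% of the bottom quartile and 0.867% to 2.67% of the top one, and these levels are a description with no test across quartiles. Cdkn1c was higher in the top than in the bottom quartile of every pool, 8.82-fold and 3.18-fold in young A and young B and 3.67-fold and 3.06-fold in aged A and aged B. Its levels in the top quartile were 121, 14.6, 127 and 36.4 CPM in young A and young B and aged A and aged B, where the young and the aged pool of platform A were nearly equal.

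Cdkn2c went the other way. From the bottom to the top quartile it went from 40.8 to 8.12 CPM in young A and from 15.2 to 9 CPM in young B. In aged A it went from 71.9 to 45.3 CPM and in aged B from 36.9 to 30.6 CPM. The ratio of top to bottom was 0.199 in young A, 0.594 in young B, 0.631 in aged A and 0.827 in aged B, so that young B and aged A were alike in this, and a difference between the ages in the ratio was not tested. The pools of the 2 platforms, which differed for Cdkn2c in the bottom quartile, were close to each other in the top quartile of young cells.

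In the top quartile the age difference of Cdkn2c was a log2 fold change of 2.13 ± 0.243 (SE, n = 2 pools per age; edgeR adjusted p = 0.0163, with 1.36% of all genes called). This test was added after the levels by quartile had been seen, and its difference from the values over whole pools and G1/G0 cells was not tested. The call was lost without the platform block (adjusted p = 0.17) and with a pool and the block both left out (adjusted p = 0.0632 to 0.332), where the log2 fold change was 1.89 to 2.29. In cells thinned to 3000 UMIs, 2.31% and 2.18% of young cells and 12.2% and 9.64% of aged cells of this quartile held a Cdkn2c UMI, in the order A, B. None of the other 4 tested members passed in this quartile. Cdkn1b was at 18.3 to 25.5 CPM in the top quartile, with a ratio of top to bottom of 0.97 to 1.24 in 3 pools and of 1.88 in young B (13.6 to 25.5 CPM). Cdkn2d was at 70.9 to 77.6 CPM there, with a ratio of 0.905 to 0.93 in 3 pools and of 0.652 in aged B, whose bottom quartile was at 119 CPM.

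**Figure D3:**
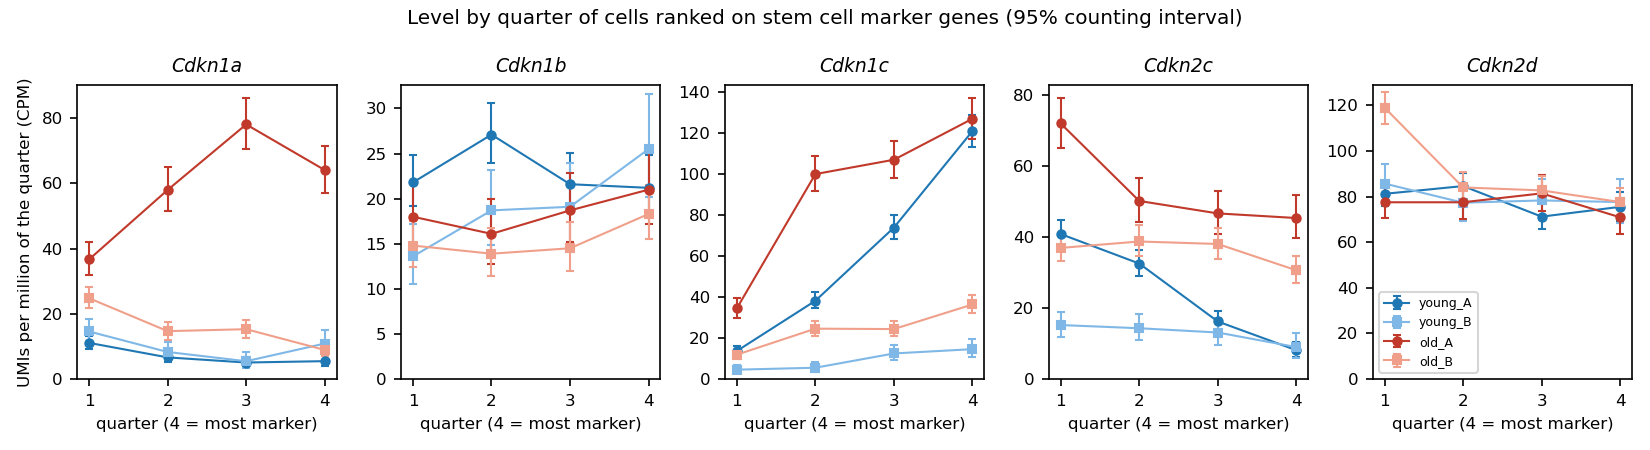
Level of the 5 tested inhibitors (vertical axis, CPM of the cell group, from 0) along quartiles of cells ranked by 8 stem cell markers (horizontal axis, 4 ranks highest), 1 line per pool with 95% counting intervals. Cdkn1c climbs to 121 and 127 CPM in the platform A pools, and Cdkn2c in the top quartile is at 8.12 and 9 CPM in young and at 45.3 and 30.6 CPM in aged pools.

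The cells were then clustered after integration of the 4 pools, with the members kept out of the genes used. Of 13 clusters, 8 carried the markers of a named state ("-like" names) and 5 stayed unnamed: cluster 0 (led by Cldn5 and Ramp2), cluster 1 (Flt3), cluster 2 (Meg3), cluster 4 (Slc39a1 and Spry2) and cluster 12 (37 cells, led by immunoglobulin genes). Levels across clusters are given as a description.

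Among the 11 clusters with at least 10 cells in each pool, Cdkn1a was highest in young A and aged A in the tgf-like cluster, whose cells are led by the immediate-early genes Nr4a1 and Atf3. It was at 58.7 CPM there in young A, 310 CPM in aged A and 115 CPM in aged B, with 0 UMIs in the 12 such cells of young B. This cluster supplied 30.2% of the Cdkn1a UMIs of aged A and 8.72% of those of aged B. A second high value was the megakaryocyte-primed (pMk-like) cluster of aged B, 149 CPM (126 to 175), against 10.1 to 28 CPM in the pMk-like cells of the other pools. It rested on 152 UMIs that lay in 19 of the 96 cells, with up to 19 UMIs in a cell. They made up 28.2% of the Cdkn1a UMIs of aged B, against 7.27% from this cluster in young B. The level of aged B without these cells was not computed. The counting interval, which takes UMIs as independent, is too narrow here.

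Cdkn1b was highest in cluster 4, at 50.5 and 38.7 CPM in young A and young B and at 39.5 and 25.9 CPM in aged A and aged B. In every pool this was the highest of the 11 clusters, and clusters 0, 1 and 2 spanned 13.7 to 21.7 CPM.

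Among the 11 clusters, Cdkn1c was highest in clusters 0 and 2 and the tgf-like cluster in every pool, and low in the lineage-primed ones. The highest lineage-primed value among them was 27.7 CPM, in pMk-like cells of aged A. The small lymphoid-primed (pL1-like) cluster, outside the 11, was at 4.98 to 48.6 CPM over 3 pools, with 19 UMIs in all pools together. The tgf-like level of young B rested on 12 cells with 0.704% of that pool's 142 Cdkn1c UMIs, so its place there is not firm. Cluster 4 came close, at 9.99 CPM against 10.8 CPM in cluster 2 of young B and at 113 CPM against 118 CPM in cluster 0 of aged A. In cluster 0 it was at 137 and 15.4 CPM in young A and young B and at 118 and 32.8 CPM in aged A and aged B. In erythroid-primed (pEr-like) cells it was at 7.48 and 0 CPM in the young and 5.52 and 2.18 CPM in the aged pools. Neutrophil-primed (pNeu-like) cells had 3.43 to 7.81 CPM. In thinned cells, 31.2% of cluster 0 cells of young A held a Cdkn1c UMI and 1.79% of its pEr-like cells did, at median depths of 5220 UMIs and 7643 UMIs.

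Cdkn2d was highest of the 11 clusters in the div-like cluster of dividing cells, led by Cenpf and Ube2c, in every pool, and Cdkn2c was so in every pool but young B. Cdkn2d was at 182 and 161 CPM there in young A and young B and at 182 and 237 CPM in aged A and aged B. It was also high in the small lymphoid-primed (pL1-like) cluster of young pools, at 179 and 169 CPM from 45 and 34 UMIs, and low in pNeu-like cells (36.5 to 54.8 CPM). Cdkn2c in div-like cells was at 90.5 and 12.4 CPM in young A and young B and at 175 and 48.1 CPM in aged A and aged B, higher on platform A, as in the G2/M cells.

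**Figure D4:**
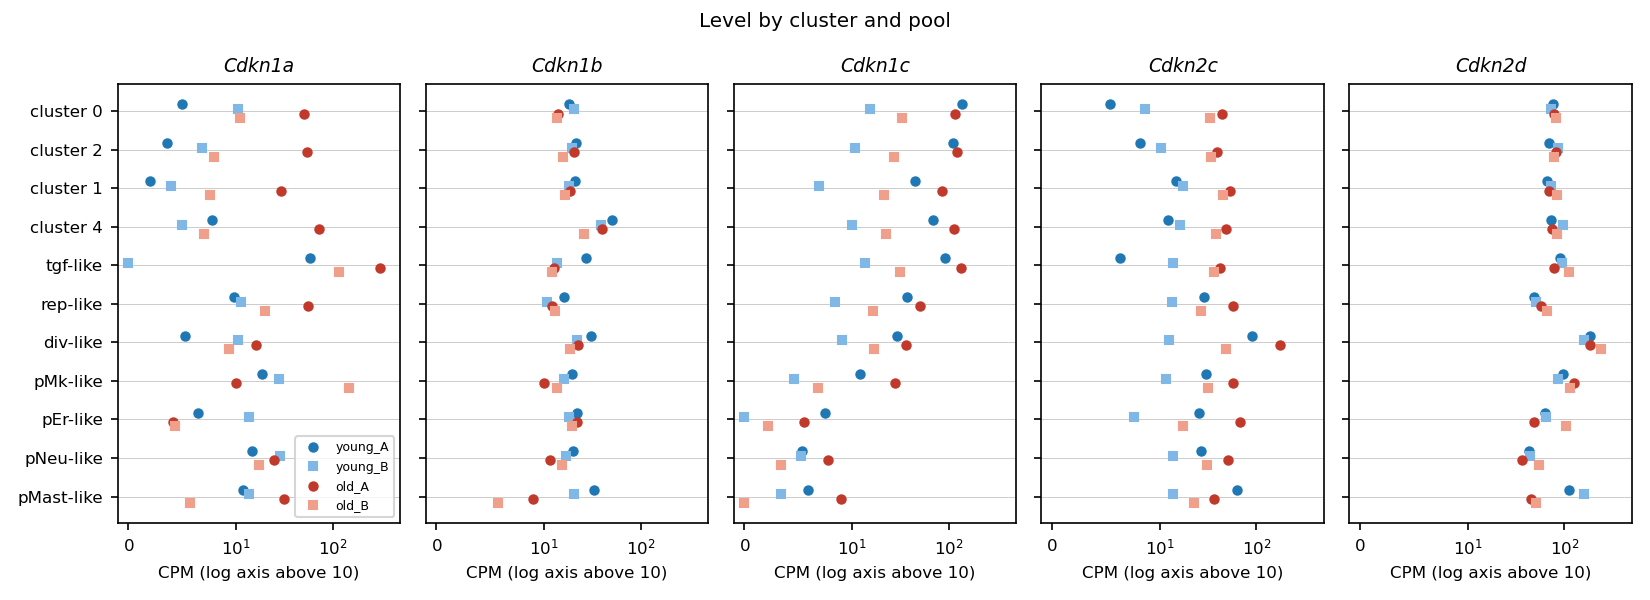
Level of the 5 tested inhibitors (horizontal axis, CPM, linear to 10 and logarithmic above) in the 11 clusters with at least 10 cells in every pool (vertical axis), 1 point per pool, circles for platform A and squares for platform B. Cdkn1a peaks in tgf-like cells in the platform A pools only (310 CPM in aged A). Cdkn2d peaks in div-like cells in every pool (161 to 237 CPM), and Cdkn1c is low in the lineage-primed clusters at the bottom (0 to 27.7 CPM).

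Age was tested within the 11 clusters that had at least 10 cells in each pool. Of 46 tests of a member in a cluster, 5 passed, against 0.893% of all gene tests within clusters. Of the 5 calls, 4 were Cdkn2c and 1 was Cdkn1a. At an unadjusted p under 0.05 there were 20 member tests, a count for which no share over all genes was computed. It is therefore not read as a result about the members. The tests of a member in different clusters also come from the same 4 pools. Without the platform block 0 passed. The fits with 1 pool left out dropped the block too, and the calls in them varied with the pool left out.

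Cdkn2c rose in cluster 0 from 5.35 and 8.62 CPM in young A and young B to 44.1 and 33.4 CPM in aged A and aged B. This was a log2 fold change of 2.51 ± 0.297 (SE, n = 2 pools per age; edgeR adjusted p = 0.0101). It rose also in cluster 1 (1.58 ± 0.204, SE; adjusted p = 0.0252), in cluster 4 (1.65 ± 0.318, SE; adjusted p = 0.0251) and in div-like cells (1.3 ± 0.295, SE; adjusted p = 0.0162), all by edgeR. In cluster 2 it went from 8.2 and 10.3 CPM to 39.2 and 33.7 CPM, which missed the threshold (edgeR adjusted p = 0.0683). Both aged pools lay above both young pools in 7 of the 10 clusters where Cdkn2c was tested, against 14.5% of gene tests within clusters.

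Cdkn1a passed in 1 of the 9 clusters where it was tested, cluster 4 (2.65 ± 0.503, SE, log2; edgeR adjusted p = 0.0237). Its log2 fold changes were similar in the tgf-like cluster (2.57), cluster 1 (2.52) and cluster 2 (2.32), and a difference between clusters was not tested. In cluster 4 its levels were 7.81 and 4.99 CPM in young A and young B and 72.7 and 7.05 CPM in aged A and aged B, so that aged B did not exceed young A. Both aged pools lay above both young pools in 5 of 9 clusters. Cdkn1b lay lower in both aged pools in 3 of 9 clusters (11.7% of gene tests), Cdkn1c showed no such separation in 7, and Cdkn2d was higher in 4 and lower in 1 of 11.

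**Figure D5:**
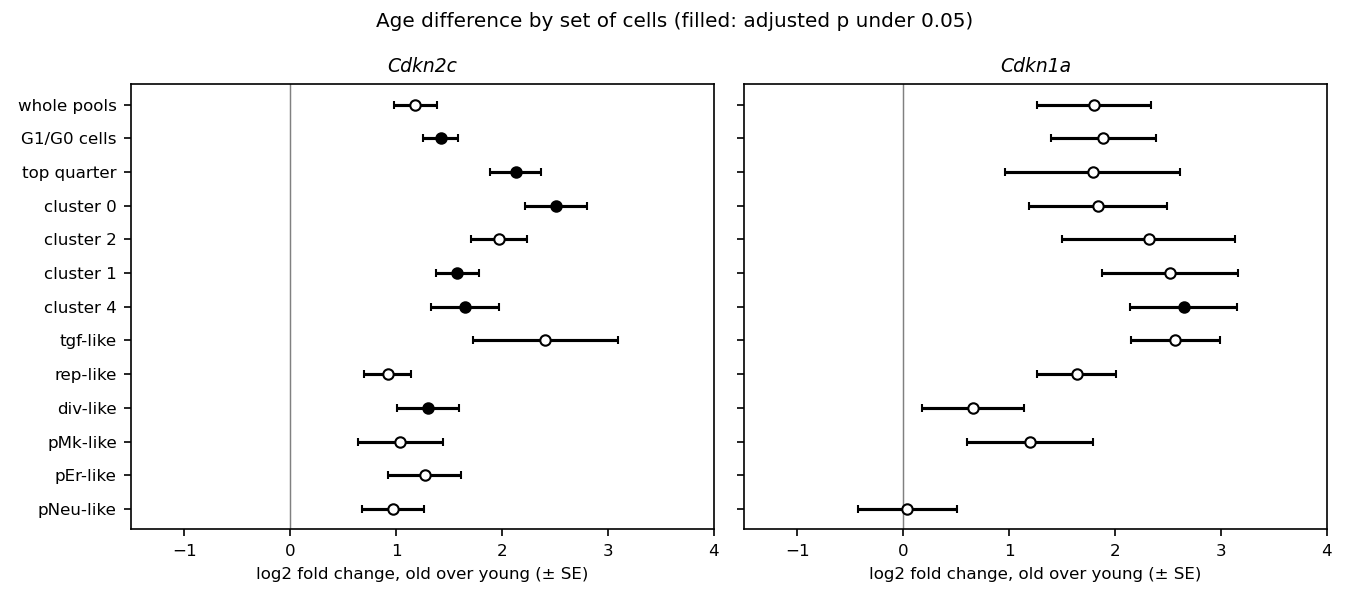
Log2 fold change of aged over young with its SE (horizontal axis) for Cdkn2c and Cdkn1a in whole pools, G1/G0 cells, the top stem cell marker quartile and each cluster tested (vertical axis); filled points have an adjusted p under 0.05. Cdkn2c is positive in every set shown, from 0.92 in rep-like cells to 2.51 in cluster 0, whereas Cdkn1a is near 0 in pNeu-like cells (0.04).

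The genes around the inhibitors were read from the same fit of whole pools, as 7 lists of 76 genes, all tested. Of these, 2 rose and 0 fell, close to the 2.03% of all genes called, and the median log2 fold change of aged over young was -0.04, against 0.01 over all genes. Among the cyclins, Ccnd1, the D cyclin that the Ink4 proteins keep from Cdk4 and Cdk6, rose from 26.5 and 24.1 CPM in young A and young B to 59.3 and 57.3 CPM in aged A and aged B (1.15 ± 0.165, SE, log2; edgeR adjusted p = 0.0461). Among genes of the p53 axis, Plk2 rose from 3.92 and 0.915 CPM to 58.9 and 7.21 CPM (3.49 ± 0.273, SE, log2; edgeR adjusted p = 0.014), most in aged A as Cdkn1a did.

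The direct targets of the Ink4 proteins stood lower in aged cells without passing the test. Cdk4 was at 417 and 410 CPM in young A and young B and at 274 and 350 CPM in aged A and aged B (edgeR adjusted p = 0.421). Cdk6 was at 213 and 183 CPM in the young and 162 and 124 CPM in the aged pools (edgeR adjusted p = 0.236). Over all 4 kinases of the list, that is Cdk4 and Cdk6 with Cdk1 (-0.9) and Cdk2 (-0.19), the median log2 fold change was -0.5. Ccnd2 (419, 452, 416 and 442 CPM) and Ccnd3 (165, 166, 184 and 189 CPM), the more abundant D cyclins, were nearly level across young A and young B and aged A and aged B.

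The other regulators named did not pass either. Trp53, which encodes p53, was at 290 and 266 CPM in young A and young B and at 227 and 244 CPM in aged A and aged B (edgeR adjusted p = 0.596). Mdm2, its ubiquitin ligase and target, followed the platform and not the age (40.1, 9.76, 38.2 and 10.4 CPM). Bmi1, the Polycomb repressor of Cdkn2a, did the same (21.6, 7.8, 31.4 and 7.9 CPM), and 0 of the 14 Polycomb genes passed. Skp2, which marks p27 for degradation (18.9, 8.72, 11.4 and 9.01 CPM), and Rb1 (5.76, 5.06, 11.5 and 4.39 CPM) overlapped between ages.

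Between G2/M and G1/G0 cells, where 40.6% of all genes were called (2144 higher and 2171 lower), 23 of the list genes were higher and 15 lower in G2/M. Cdk6 rose in G2/M by a log2 fold change of 0.78 and Cdk4 by 0.33, while Ccnd1 fell by 1.54 and Ccnd2 fell by 1.32 on the log2 scale. Ccnd1 and Ccnd2 were thus lower in the phase in which Cdkn2d and, in all pools but young B, Cdkn2c were higher. Ccnd3 did not pass (log2 fold change 0.03, edgeR adjusted p = 0.831).

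The members' levels over clusters were only loosely related. Over 40 sums (10 clusters in 4 pools), Pearson's r between any 2 of the 5 members lay between -0.19 and 0.34, as a description over points that share libraries and depth. The genes most like Cdkn1c were Tbkbp1 and Adgrg1 (r = 0.92 each) and Hdgfrp3 (0.91). Those most like Cdkn2d were H1f0 (0.83), Sri and Ubb (0.72 each), and those most like Cdkn1b included Foxo3 (0.72) and Hsd17b11 (0.67). Cdkn2c was most like Ywhab (0.76), Osbpl8 (0.73) and Fam120a (0.7), and Cdkn1a, whose best values were lowest, like Rnaset2a (0.63), Gadd45b (0.61) and Tfpi (0.59).

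No member was seen in 34.2% and 43.8% of cells of young A and young B and in 26.2% and 29.9% of cells of aged A and aged B. Exactly 2 members were seen in 19.3% and 11.3% of young and in 24.4% and 19.5% of aged cells, and 3 in 4.72% and 2.36% of young and in 10.2% and 6.48% of aged cells, in the order A, B. In thinned cells of aged A, 26.2% of cells with a Cdkn1a UMI also held Cdkn1c, against 22.2% of cells without one. In aged B the shares were 4.8% and 6.66%, so the direction was not the same in both pools.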

How the data were processed

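Single-cell RNA-seq of 4 HSPC pools was analysed. The authors deposited raw UMI counts per gene and barcode, made with Cell Ranger 2.2.0 on mm10 (GRCm38.p4) per the submitters' processing notes, and the annotation release and strand setting are not given in the sources used here. Barcodes whose log UMI total lay more than 2 SD from the average of the pool were dropped. Doublets were not called.

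Counts were summed per pool and tested over all genes with edgeR 4.0.16 (quasi-likelihood, TMM, filterByExpr, R 4.3.3), Benjamini-Hochberg at 0.05, with platform as a block: the platform letter is shared by 1 young and 1 aged pool, and the study's tests were grouped by it. Platform differences of young and aged pools had r = 0.489 over 13555 genes. DESeq2 1.42.0 was the alternative. With 1 pool left out, age was fitted without the block, and the lone pool was assumed to vary like the other age. Phases came from cyclone (scran 1.30.0), and clusters from Seurat 5.3.0 (2000 variable genes less 4 members, 15 components, resolution 0.5). On simulated data the age fit over whole pools made more false calls than its threshold allows, and the phase fit did not clearly do so. The age fit made 49 false calls, to be set against its true calls, 35 of 100 changes of 2-fold and 94 of 100 of 4-fold. The age fits in G1/G0 cells, the top quartile and the clusters have the same design, and their false calls were not simulated. The phase fit made 13 false calls and recovered 94 of 98 and 96 of 99. Gene positions are from GENCODE on GRCm38.

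The 7 members and the gene lists were chosen with earlier results of these data known. The text names every member, the called genes of each list (at most 4), a set of 10 regulators fixed with the lists, and the 3 genes most like each member, of which 1 is not reported here.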

Additional observations from a re-analysis of the deposited data

How the results depend on the processing

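In the fits over pools and phases, every called difference of a member kept its sign under the alternatives run, except Cdkn2d in S phase, which turned to -0.32 with Seurat phases; the cause was not tested. For uncalled members, Cdkn1c spanned -0.24 to 2.44 over whole pools, -0.31 to 2.48 in G1/G0 cells and -0.68 to 2.23 in the top quartile with 1 pool left out (log2, aged over young), and Cdkn1a 0.99 to 2.51 over whole pools and 0.27 to 2.79 in the top quartile. All age fits with a pool left out also lost the platform block, since 3 pools leave it no residual degree of freedom, so their changes cannot be put down to the pool alone. Cdkn2d spanned -0.27 to 0.32, -0.09 to 0.38 and -0.3 to 0.16 there, and was -0.01 over whole pools with DESeq2 and with its size factors. For the age difference in G2/M minus G1/G0, Cdkn1c was -0.15 with DESeq2 and -0.89 to 0.58 with 1 pool left out, Cdkn2c -1.47 to 1.37, and Cdkn2d 0.01 with Seurat phases.

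Counts of members called with age were 2 over whole pools with DESeq2 and with no filter on low counts, and 0 to 1 with 1 pool left out (Cdkn1c, without young A); in G1/G0 cells they were 2 with DESeq2, 0 to 1 with 1 pool left out (Cdkn1c without young A, Cdkn1a without young B) and 0 without the replicate block; in the top quartile 0 to 1 (Cdkn1c without young A) and 0, the last 2 settings chosen after seeing the data. Within clusters 0 passed without the replicate block and 0 to 4 with 1 pool left out (0 without aged A, 1 without aged B). Between S and G1/G0, 1 passed with DESeq2 and 1 to 2 with 1 pool left out, and for the phase by age term 0 to 1. The 76 list genes gave 5 calls with DESeq2 and with no filter, 1 with RLE size factors, 0 without the block and 0 to 3 with 1 pool left out. Dropping the block alone already lost the age calls of Cdkn2c in G1/G0 cells and the top quartile. The counts under the alternatives stand here without the share of all genes called in each. They are therefore not read as results about the members or the list genes. Cdkn2a and Cdkn2b were limited by depth.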
